A study of Glycine max with 2 samples.

Results

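The genes described here are 5 soybean genes annotated as glucan synthase-like by their best Arabidopsis match: Glyma.08G308700, Glyma.13G261000, Glyma.15G245800, Glyma.18G107900 and Glyma.18G109100. They are 5 of the 56044 genes listed in the count matrix. They were chosen by their RNA in these same nuclei, as markers of a vascular cluster of the seed coat, so the levels below are a description and carry no test. The identifiers place them on chromosomes 8, 13, 15 and 18, with a pair on 18. Glyma.08G308700, Glyma.18G107900 and Glyma.18G109100 match Arabidopsis GSL7, and Glyma.13G261000 and Glyma.15G245800 match Arabidopsis GSL4.

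Callose is a beta-1,3-glucan that plants lay down at plasmodesmata, the channels between neighboring cells, and at the sieve plates of the phloem. Callose synthases make it at the plasma membrane, and beta-1,3-glucanases remove it. In Arabidopsis, GSL7 makes the callose of sieve plates. The seed coat vasculature carries the sugars and other solutes that feed the developing embryo.

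Nuclei were isolated from pooled cotyledon-stage seeds of the cultivar Williams 82, grown in a greenhouse. RNA and open chromatin were read from the same nuclei, which gave 1 RNA library and 1 ATAC library. There are no replicates, and nuclei of 1 library do not replicate each other, so no p-value is given and every interval covers counting error only. The RNA library held 39881831 UMIs (molecular tags, 1 for each RNA molecule that was captured) in 8636 nuclei, with medians from 1152 to 6944 UMIs in the 23 clusters. The ATAC library had a median of 7840 fragments per nucleus, from 129 to 294125.

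Clusters were rebuilt and carry the sn numbers of the study, with the seed regions that it assigned. The vascular clusters of the outer integument were sn6a, with 360 nuclei and a median of 2267 UMIs, and sn6b, with 198 nuclei and a median of 2904 UMIs. The 12 vascular genes used here to describe these clusters were taken from the study's sn6a markers, chosen on these nuclei, so they are no independent check of the label. All 12 were seen in at least 25% of the sn6a nuclei and averaged no less than 2 times their mean in the remaining nuclei, and 9 passed the same rule in sn6b. Over all 29742 genes with at least 100 UMIs, 0.43% passed this size rule in sn6a and 1.57% in sn6b. Their summed level was 3869 UMIs per 1000000 UMIs (CPM) in sn6a and 5852 CPM in sn6b, against 146.0 to 1796 CPM in the other clusters. The lists for embryo (7 genes), endosperm (4 genes) and seed coat epidermis (7 genes) had no gene past the rule in either cluster. Of 6 genes of the outer integument parenchyma, 0 passed in sn6a and 2 in sn6b.

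Each of the 5 genes had its highest level in sn6a and its second highest in sn6b, and the counting intervals of these clusters overlapped neither each other nor those of any other cluster. The sn6a nuclei held 4.17% of all nuclei and 2.82% of all UMIs, but 40.4% (39.4 to 41.4%) of the 9401 UMIs of the 5 genes. With sn6b, which held 2.34% of all UMIs, the share was 51.3%. In sn6a, 5 of 5 genes passed the size rule given above for the vascular genes, and 4 of 5 did in sn6b. The shares over all genes were the 0.43% and 1.57% given above. The choice of the genes used the sn6a contrast, so their count there is not a finding. The gene that missed the rule in sn6b, Glyma.15G245800, was detected in 22.2% of its nuclei.

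**Figure D1:**
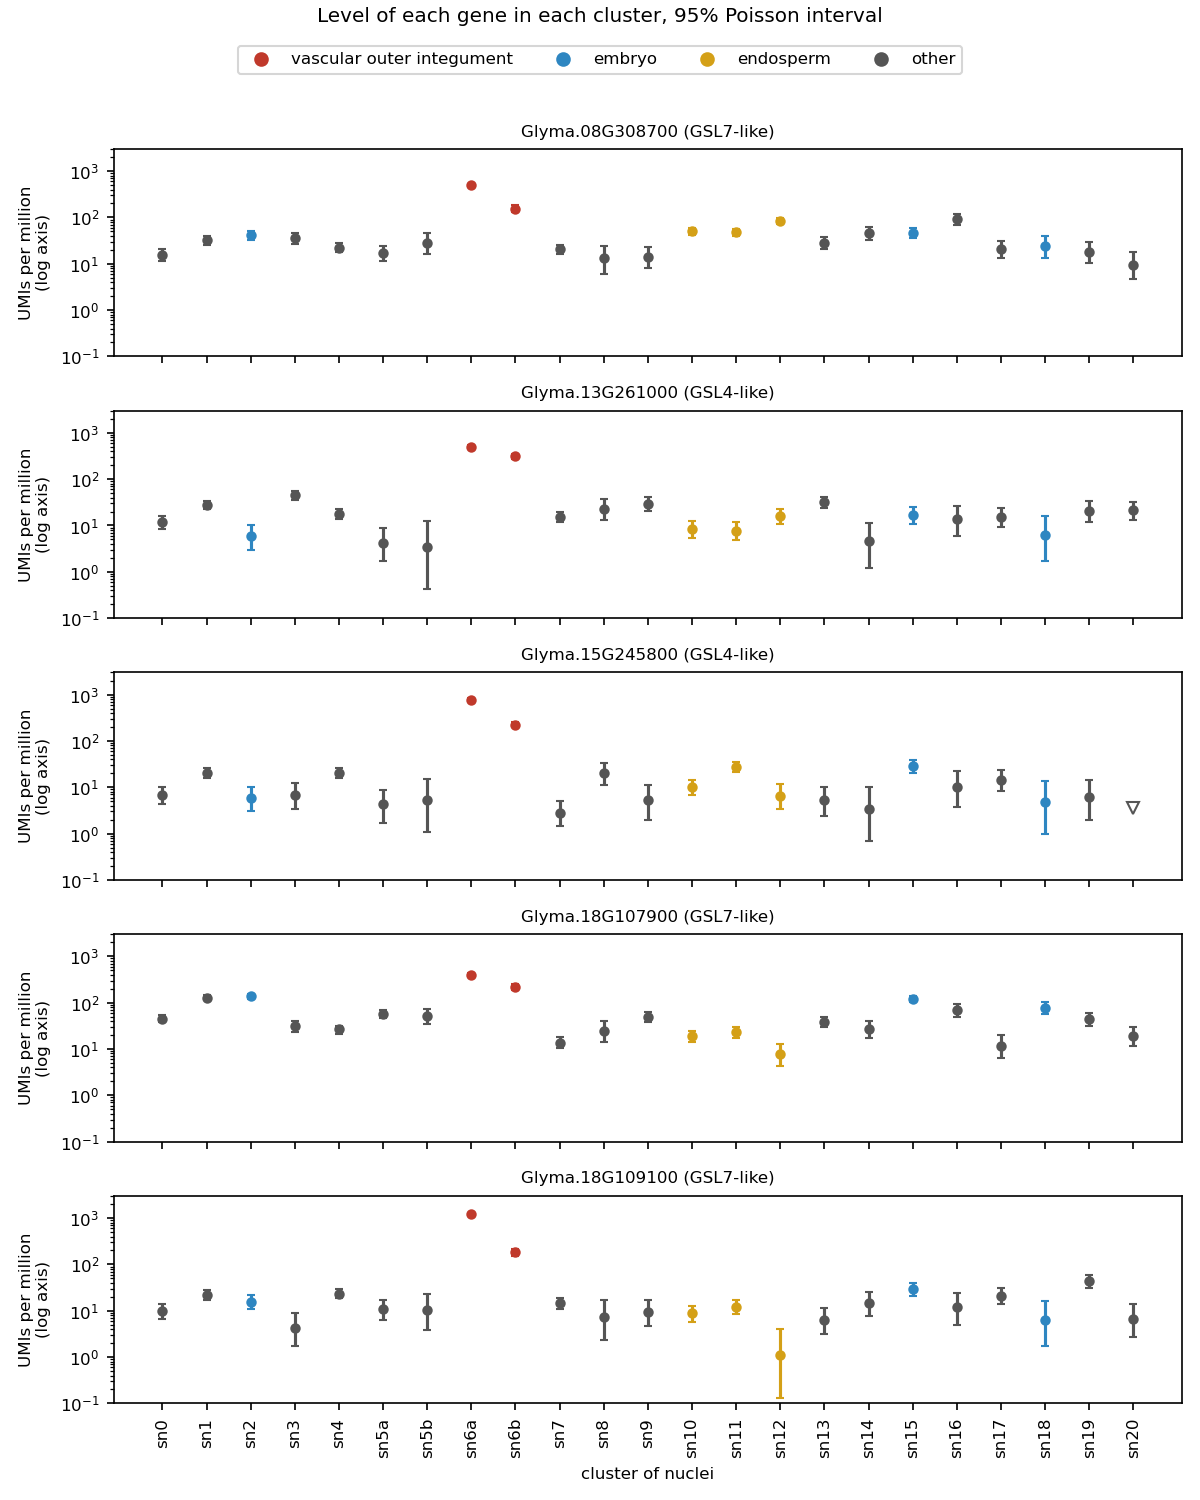
Level of each of the 5 genes (CPM, log axis) in each of the 23 clusters, with 95% Poisson intervals as bars and colors for seed regions. The open triangle is the upper limit of a cluster with 0 UMIs. In every panel sn6a is highest and sn6b second, and the cluster that follows differs from gene to gene.

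Among the GSL7-like genes, Glyma.18G109100 was the most concentrated. Of its 2065 UMIs, 66.1% (64.0 to 68.1%) lay in sn6a, where its level was 1215 CPM (1152 to 1282). It reached 180.9 CPM (154.6 to 210.3) in sn6b and 14.04 CPM over all other nuclei. The level in sn6a was thus 86.6 times (78.3 to 95.9) that of the other nuclei and 6.72 times (5.72 to 7.93) that of sn6b. The third cluster was sn19, of the outer integument, at 43.7 CPM (30.6 to 60.5), whose interval overlapped that of sn15, of the embryo, at 28.9 CPM. A single sn19 nucleus held 13 of the 36 UMIs there, and without it the level was 28.4 CPM. The lowest was sn12, of the endosperm, with 2 UMIs.

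Glyma.18G107900, numbered close to it on chromosome 18, was the most widely detected of the 5. It had UMIs in 1404 nuclei, or 16.3% of all, and 18.6% (17.1 to 20.2%) of its 2421 UMIs lay in sn6a. Its level was 400.7 CPM (364.5 to 439.4) in sn6a and 217.3 CPM (188.4 to 249.3) in sn6b. Next came sn2 of the embryo at 137.8 CPM (122.2 to 154.9), sn1 of the outer integument at 129.3 CPM (116.6 to 142.9) and sn15 of the embryo at 122.2 CPM (104.3 to 142.4). These clusters did not differ beyond their counting intervals. The gene was detected in 30.0% of sn2, 30.2% of sn1 and 36.0% of sn15 nuclei, against 3.90% of sn12 nuclei, although sn12 nuclei were deeper (a median of 4647 UMIs) than those of sn2 (2576 UMIs). Its sn6a level was 8.57 times (7.71 to 9.51) that of the nuclei outside the vascular clusters, the smallest such ratio of the 5 genes.

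Glyma.08G308700 had 496.8 CPM (456.4 to 539.8) in sn6a and 155.2 CPM (131.0 to 182.6) in sn6b. The third cluster for this gene was sn16, assigned to the hilum, at 92.4 CPM (69.4 to 120.6), followed by sn12 of the endosperm at 84.2 CPM (71.4 to 98.6), and these intervals overlapped. The endosperm clusters sn10 and sn11 had 49.9 and 48.1 CPM. The endosperm cluster sn12 was thus among the highest for this gene and the lowest for Glyma.18G109100 and Glyma.18G107900, which share its Arabidopsis match.

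Of the GSL4-like genes, Glyma.15G245800 had 57.7% (55.1 to 60.2%) of its 1504 UMIs in sn6a. Its level was 771.9 CPM (721.4 to 825.1) in sn6a, 225.8 CPM (196.4 to 258.5) in sn6b and 11.3 CPM over all other nuclei. The ratio of sn6a to the other nuclei was 68.5 (61.0 to 77.2). Outside the vascular clusters it was highest in sn15 of the embryo and sn11 of the endosperm, at 28.2 and 27.6 CPM. A single nucleus held 29 of the 75 UMIs in sn11, and without it the level there was 16.95 CPM. It had 0 UMIs in the 162 nuclei of sn20, which allows a share of up to 1.85% of nuclei with a UMI.

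For Glyma.13G261000 the level was 497.7 CPM (457.3 to 540.7) in sn6a and 312.5 CPM (277.7 to 350.5) in sn6b, a ratio of 1.59 (1.38 to 1.84). That was the lowest ratio of the 5 genes, but its interval overlapped that of Glyma.18G107900, and with log-normalized clusters the order of these genes turned (2.77 and 2.27). It was detected in 51.1% of sn6a nuclei and 56.1% of sn6b nuclei. The third cluster for this gene was sn3, of the seed coat epidermis, at 45.2 CPM (35.5 to 56.9), and its interval overlapped that of sn13, also of the epidermis, at 32.1 CPM.

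**Figure D2:**
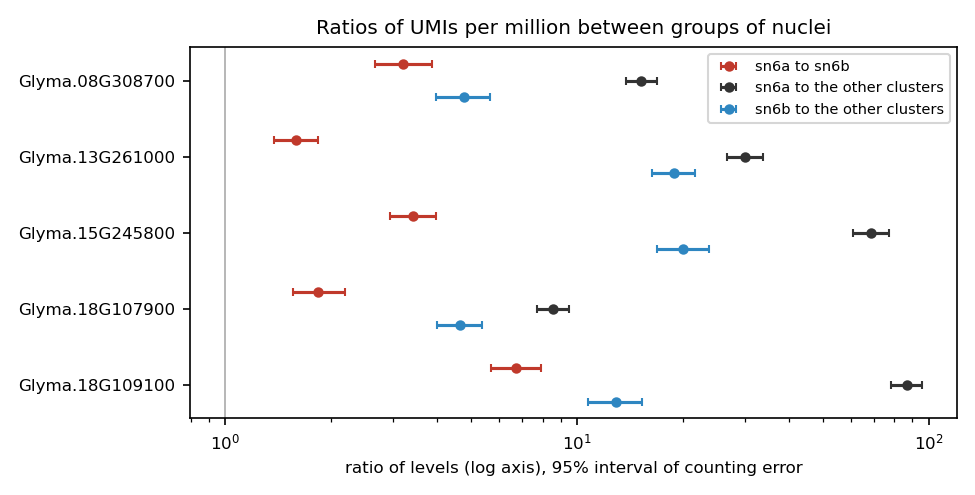
Ratio of the level of each gene in sn6a to sn6b, in sn6a to all nuclei outside both clusters, and in sn6b to the same nuclei (log axis, bars are 95% intervals of counting error). The ratio of sn6a to sn6b runs from 1.59 for Glyma.13G261000 to 6.72 for Glyma.18G109100.

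Among the other genes, the ratio of sn6a to sn6b was 3.20 (2.66 to 3.87) for Glyma.08G308700 and 3.42 (2.94 to 3.99) for Glyma.15G245800, which did not differ beyond their intervals. It was 1.84 (1.56 to 2.19) for Glyma.18G107900, whose interval overlapped that of Glyma.13G261000. The GSL7-like genes spanned 1.84 to 6.72 and the GSL4-like genes 1.59 to 3.42. With log-normalized clusters, where sn6b held 33 nuclei, these ranges were 2.27 to 7.05 and 2.77 to 8.86, and Glyma.15G245800, not Glyma.18G109100, had the highest ratio. The lowest match of a log-normalized cluster to the study's averages was a correlation of 0.685, against 0.978 in the main setting. These ratios may thus compare other sets of nuclei. The vascular genes did not share 1 direction between these clusters: the SWEET13 sugar transporter gene Glyma.08G010000 had 323.2 CPM in sn6a and 1010 CPM in sn6b, and the BRX gene Glyma.16G074200 had 195.0 and 63.2 CPM.

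Within sn6a, the RNA of each gene was detected in 42.2 to 51.1% of nuclei. Glyma.08G308700 had UMIs in 152 of the 360 nuclei, Glyma.15G245800 in 167, Glyma.18G109100 in 170, Glyma.18G107900 in 175 and Glyma.13G261000 in 184. The 36 nuclei with the most UMIs of a gene held 74.1% of the UMIs of Glyma.18G109100, 65.2% of those of Glyma.08G308700 and 55.3 to 58.5% of those of the other genes. The highest nucleus had 97 UMIs of Glyma.18G109100. These counts were not scaled for depth, so deep nuclei may rank first. Per 10000 UMIs of a nucleus, the highest value was 240.2 for Glyma.18G109100 and 57.2 to 118.7 for the other genes. The ninetieth percentile was 24.4 for Glyma.18G109100, close to the 22.4 of Glyma.15G245800. At the other end, 55 of the 170 nuclei with Glyma.18G109100 had 1 UMI of it. For comparison, the lowest share of nuclei with a UMI in any cluster was 0.601% for Glyma.18G109100, in sn12 (a median of 4647 UMIs). It was 0.985% for Glyma.13G261000, in sn5b (2175 UMIs). In sn8 (1152 UMIs) it was 1.68% for Glyma.08G308700 and 2.53% for Glyma.18G107900. Background, low RNA and low depth cannot be told apart in these shares.

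**Figure D3:**
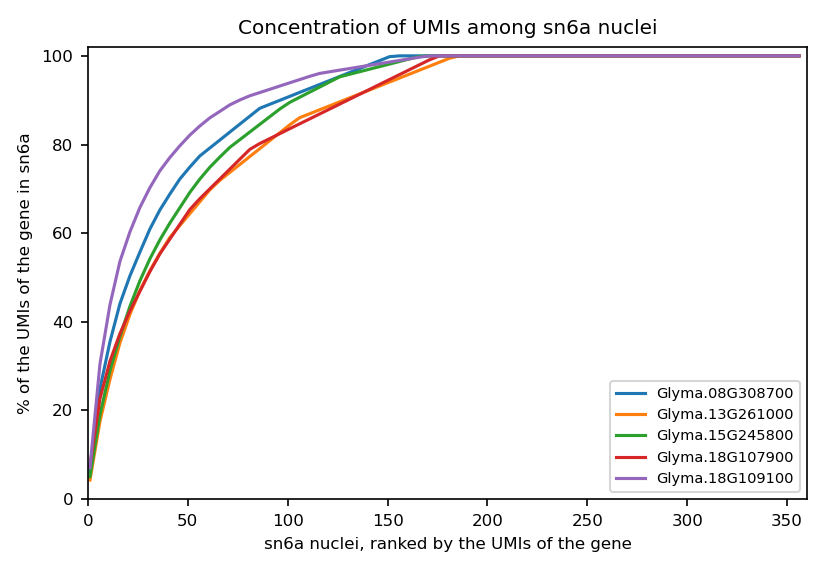
Cumulative share of the UMIs of each gene in sn6a (y axis, %) over the 360 sn6a nuclei ranked by their UMIs of that gene (x axis). Counts are not scaled for depth. The curve of Glyma.18G109100 is the steepest, with 74.1% of its UMIs in the first 36 nuclei.

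A UMI of at least 1 of the 5 genes was found in 2740 nuclei, or 31.7% of all, and UMIs of all 5 in 80 nuclei. In sn6a, 85.0% (80.9 to 88.5%) of nuclei had at least 1 of the genes and 45.3% (40.1 to 50.6%) had at least 3. In sn6b, these shares were 80.8% (74.6 to 86.1%) and 29.8% (23.5 to 36.7%). Over all other nuclei, they were 28.2% and 1.47%. The lowest share with at least 1 gene was 9.26%, in sn8, whose median depth of 1152 UMIs was also the lowest. With every nucleus thinned to 500 UMIs, at least 1 gene was seen in 54.2% of sn6a, 34.9% of sn6b and 5.63% of other nuclei, and at least 3 genes in 8.61%, 1.01% and 0.0124%.

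**Figure D4:**
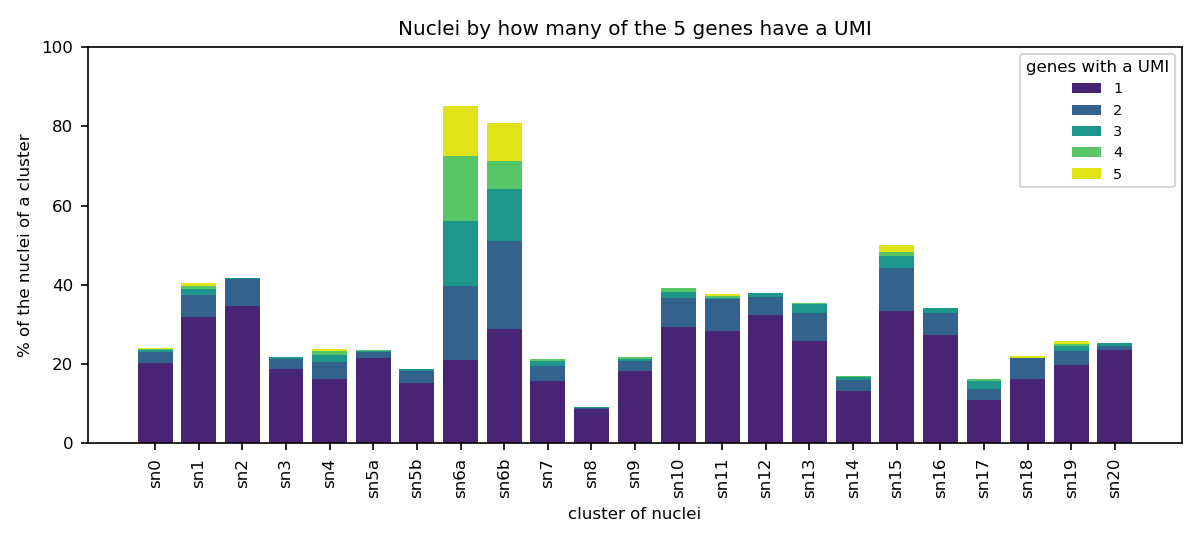
Share of the nuclei of each cluster (y axis, %) with UMIs of 1 to 5 of the genes, stacked by number of genes, without thinning. The bars of sn6a and sn6b reach 85.0% and 80.8%.

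The number of genes seen moved with depth. The 54 sn6a nuclei with none of the genes had a median of 1862.5 UMIs, and the 45 with all 5 had 5521 UMIs. The vascular list summed to 3492 CPM in sn6a nuclei with none and 3890 CPM in those with at least 3. In sn6b it was 3568 CPM with none and 7107 CPM with at least 3, where median depth was 2438.5 and 4782 UMIs. Fewer nuclei with RNA and less RNA per nucleus cannot be told apart for the low counts.

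The genes were found together unevenly in sn6a. To hold depth in a narrow range, pairs were counted in the 239 sn6a nuclei with 1500 to 4000 UMIs. Of the 104 nuclei with Glyma.18G109100, 59.6% also had Glyma.08G308700, against 20.0% of the nuclei without it. For Glyma.15G245800 the shares were 66.3% and 22.2%. For Glyma.18G107900, the neighbor by number, they were 47.1% and 41.5%. Over all 360 nuclei, the correlation of log counts per 10000 was 0.55 for Glyma.08G308700 with Glyma.18G109100, 0.42 for Glyma.13G261000 with Glyma.15G245800, and 0.04 for Glyma.13G261000 with Glyma.18G107900. These points share 1 library and sparse counts, and the values are descriptions.

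Outside the vascular clusters, 119 nuclei had at least 3 of the genes, with 21 of them in sn1, 18 in sn4 and 13 in sn15. Their median depth was 7547 UMIs, against 2583 UMIs in the nuclei outside with none. Their summed level of the vascular list was 1315.5 CPM, against 518.4 CPM. Of the 119, 28 (23.5%) were among the 6% of all nuclei with the highest doublet scores, against 4.74% of those with none. The part of depth and of doublets in these nuclei was not tested.

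The choice of genes did not use the chromatin of the same nuclei. The groups of nuclei and the shares of neighbors with the genes still count the RNA that the choice used. For each nucleus, the 20 nearest nuclei by ATAC signal were found. Of the neighbors of the 341 nuclei with at least 3 of the genes, 30.8% also had at least 3, against 1.02% of the neighbors of nuclei with none and 3.95% of all nuclei. Of the 341 nuclei, 222 lay in sn6a or sn6b, while 5804 of the 5896 nuclei with none lay outside. These groups thus also differed in cluster. With at least 1 gene as the criterion the gap was smaller, at 40.2% of neighbors for nuclei with a gene, 22.2% for nuclei with none and 31.7% of all nuclei. The 119 nuclei outside the vascular clusters had 22.3% of their neighbors in sn6a or sn6b, against 1.09% for nuclei outside with none of the genes. Their median of 20020 ATAC fragments was above the 6638 of the latter, and its part in the difference was not tested. Within sn6a, 75.5% of the neighbors of nuclei with at least 3 genes lay in sn6a or sn6b. The share was 74.8% for nuclei with 1 or 2 genes and 65.3% for nuclei with none. Of the neighbors of these sn6a nuclei, 44.7%, 27.8% and 19.2% had at least 3 genes themselves. Nuclei with at least 3 genes were deeper than those with none, with medians of 2837 and 1862.5 UMIs and 7043 and 5875.5 fragments. The part of depth here was not tested. The 2 vascular clusters were also partly apart in chromatin, since sn6a nuclei had 60.6% of their neighbors in sn6a and 13.1% in sn6b, and sn6b nuclei had 25.8% and 50.6%.

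The other genes of the callose pathway that were listed had their highest levels outside sn6a and sn6b. The list held 2 genes matching Arabidopsis CALS5, which makes callose of the pollen wall, 2 genes for plasmodesmal callose-binding proteins and 6 genes of the glycosyl hydrolase family that holds the beta-1,3-glucanases. Of these 10 genes, 0 passed the size rule in sn6a or sn6b, where 0.43% and 1.57% of all tested genes did. At such shares a list of 10 is likely to hold none, so this count says nothing about the list. Listed glycosyl hydrolase genes with 7 and 37 UMIs could not pass, since the rule asks for at least 100 UMIs. Glyma.05G191600 (CALS5) was highest in sn5a of the outer integument at 243.9 CPM (220.6 to 268.9) and had 9.79 CPM in sn6a. Glyma.04G213100 (CALS5) had 78.2% of its 450 UMIs in sn11 of the endosperm, at 129.3 CPM, and 0 UMIs in sn6a and sn6b. The callose-binding gene Glyma.01G058300 had 65.9 CPM in sn6a, 81.4 CPM in sn6b and its highest level, 141.4 CPM, in sn4. The glycosyl hydrolase gene Glyma.06G012900 was highest in sn4 at 287.5 CPM and had 23.2 CPM in sn6a.

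**Figure D5:**
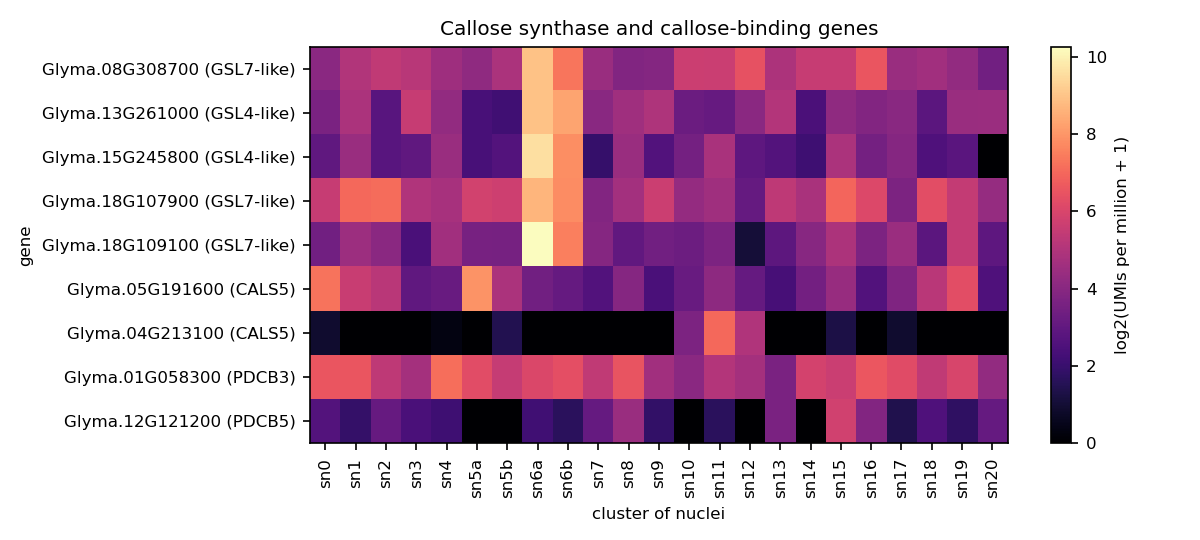
Level of the 5 genes, the 2 CALS5 genes and the 2 callose-binding genes (PDCB) in each cluster, as log2(CPM + 1), to be read along each row. The 5 upper rows are brightest in sn6a, and the CALS5 rows in sn5a and sn11.

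The genes whose pattern over the 23 clusters was most like the mean of the 5 were led by Glyma.01G195900, with a Pearson correlation of 0.90. Its best Arabidopsis match is ANT, a transcription factor of organ growth, and it had 78.4 CPM in sn6a, 12.8 CPM in sn6b and 1.24 CPM elsewhere. The next were Glyma.07G196500 (0.89), which matches PHO2, a ubiquitin-conjugating enzyme of phosphate balance, and Glyma.07G063300 (0.89), which matches an NB-ARC disease resistance gene. Then came Glyma.18G011000, Glyma.02G252200, Glyma.05G090400, Glyma.08G290600, Glyma.17G011300, Glyma.08G163400 and Glyma.06G260000, with correlations of 0.89 to 0.85. Over all nuclei, Glyma.01G195900 had 147 UMIs, and the 10 genes ran from 115 (Glyma.17G011300) to 1235 UMIs (Glyma.07G063300). For those with few UMIs, levels outside the vascular clusters rest on few counts, so their order is weakly measured. Of these 10 genes, 8 were highest in sn6a and 2 in sn6b, where 2.99% and 4.34% of all genes with at least 100 UMIs were highest. They were picked for a pattern like that of genes highest in these clusters, so this count follows from the choice. Without the vascular clusters, over the other 21, the correlations between pairs of the 5 genes ran from -0.20 to 0.41. Some of these levels rest on few counts, such as 2 UMIs of Glyma.18G109100 in sn12 and 2 of Glyma.13G261000 in sn5b. Counting error can lower such correlations, so they cannot show whether the genes share a pattern there.

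Over the 558 nuclei of sn6a and sn6b, the gene most correlated with the summed counts of the 5 was Glyma.08G308200, at 0.47. It is listed 5 places before Glyma.08G308700 and had 390.9 CPM in sn6a, 88.8 CPM in sn6b and 30.0 CPM elsewhere. Next were Glyma.18G250700 (0.46), a subtilisin-like protease gene matching AIR3, with 929.5 CPM in sn6a and 93.1 CPM in sn6b, Glyma.20G105900 (0.41) and the kinesin gene Glyma.18G073500 (0.40). The others were Glyma.14G206500, Glyma.08G039500, Glyma.19G011000, Glyma.01G005500, which matches the NAC transcription factor NAC075, Glyma.08G163000 and Glyma.05G039000, at 0.35 to 0.33. The median over 20051 genes was 0.004. Glyma.18G109100 gave the most UMIs to this sum, 1534 in these nuclei. The 10 genes named did not follow the 5 members alike. Their correlations ran from 0.35 to 0.61 with Glyma.18G109100 and from 0.25 to 0.48 with Glyma.08G308700. With Glyma.15G245800 they ran from 0.025 to 0.42, with Glyma.18G107900 from 0.15 to 0.33 and with Glyma.13G261000 from -0.07 to 0.15.

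The pair on chromosome 18 lie close by number. Of 11 genes numbered between Glyma.18G107900 and Glyma.18G109100, 3 had at least 100 UMIs and 0 passed the size rule in sn6a, where 0.43% of all genes did. With 3 genes tested this count says nothing about position. The highest of these, Glyma.18G108300, had 25.8 CPM in sn6a and its highest level, 58.8 CPM, in sn18 of the embryo.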

How the data were processed

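Counts are whole-number UMIs per gene and nucleus, deposited after the authors ran bcl2fastq 2.20.0.422 and Cell Ranger ARC 1.0, called nuclei, and corrected for background RNA with SoupX. Of the stored entries, 18.2% equal 0 and were counted as 0. The deposited ATAC fragment counts and 119743 peaks are of the same nuclei. The members and lists were chosen with earlier results of these data known.

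Nuclei were clustered in Seurat 5.3.0 (R 4.3.3; SCTransform, 3000 variable genes including the 5 members, 30 components, resolution 1) and matched to the study's clusters by correlation with its averages over 509 genes (lowest r 0.978). In the alternatives the lowest r was 0.947 at resolution 0.5, 0.484 at resolution 1.5, 0.976 without the members and 0.685 with log-normalization. Levels are counts scaled to 1000000 UMIs in each cluster, with exact Poisson intervals. Shares have Clopper-Pearson intervals and ratios conditional binomial ones, all at 95%. A share of 0 was limited by 3 counts. For thinning, 27 nuclei under 500 UMIs were left out. Scrublet marked 2 nuclei and was taken as not having worked, so no doublets were removed and its scores are given only as ranks. Chromatin neighbors used components 2 to 30 of latent semantic indexing, since component 1 followed depth (r 0.964). Depth was not fully taken out, since component 3 (r -0.487), component 6 (r -0.339) and component 2 (r 0.250) were kept. Its part in the neighbor shares was not tested.

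Named were the 5 members, other callose synthase genes, the 10 genes most like them over clusters (at least 100 UMIs), the 10 most correlated within sn6a and sn6b (in at least 20 nuclei), and list genes past the size rule. Glyma.06G012900, Glyma.01G058300 and Glyma.18G108300 were named after their values were seen. The size rule was tested on simulated data, but the outcome is not given here and nothing above rests on it. Alternatives were other resolutions, log-normalization, clusters without the members, filters on nuclei, stored 0 entries, numbers of neighbors and thinning. Reads shared by near-identical copies could bias the levels of these genes, and neither the size nor the direction of this was tested. Gene positions and sequences were not used here.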

Additional observations from a re-analysis of the deposited data

How the results depend on the processing

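All 5 genes kept their highest level in sn6a under each of the 7 alternatives tried for clusters and counts. The share of their UMIs in sn6a was 50.5% with log-normalization, which put 557 nuclei in sn6a and 33 in sn6b, and 38.7% with stored 0 entries as 1 UMI. With sn6b added, a choice made after seeing the data, it was 51.3%. The ratio of their summed level in sn6a to all nuclei outside sn6a was 23.4, and 19.5 with log-normalization, 22.2 with clusters built without them and 21.8 with stored 0 entries as 1 UMI. With log-normalization the ratio of sn6a to sn6b was 4.76 for Glyma.08G308700, 2.77 for Glyma.13G261000, 8.86 for Glyma.15G245800, 2.27 for Glyma.18G107900 and 7.05 for Glyma.18G109100. Without the nucleus highest in the gene in each cluster, a choice made after seeing the data, 5 of 5 genes were still highest in sn6a. The share of nuclei with RNA of the genes was 9.28% for at least 2 genes, 8.33% when thinned to 500 UMIs and 13.6% when thinned to 1000 UMIs. The share of chromatin neighbors with at least 3 genes ran from 27.7% with 50 neighbors to 32.1% with 10. Of the 10 genes most like the members, 2 remained by Spearman correlation and 1 without sn6a and sn6b, an alternative chosen after seeing the data. Among genes with at least 500 UMIs, 2 remained, Glyma.07G196500 (1163 UMIs) and Glyma.07G063300 (1235 UMIs). The rest of the 10 had fewer than 500 UMIs, so the filter itself removed them. The cause of the other shifts was not tested. With 1 library of each kind, the spread between seeds is unknown. No paired analysis was possible because each group has 1 sample.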

Other observations

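Genes listed within 10 places of the 5 were looked at after their values were seen. Of 46 with at least 100 UMIs, 0 passed the size rule in sn6a (0.43% of all genes), 4 were highest in sn6a and 1 in sn6b, where 2.99% and 4.34% of all genes were highest. Those highest in sn6a included Glyma.18G107800, at 32.1 CPM. Besides Glyma.08G308200, Glyma.15G246300, listed 5 places after Glyma.15G245800, was highest in sn6a, with 96 of its 459 UMIs there (85.5 CPM) and 0 CPM in sn6b. Glyma.18G107300, listed 6 places before Glyma.18G107900, had 52 of its 134 UMIs in sn6a (46.3 CPM). It was highest there, with 12.8 CPM in sn6b and 1.85 CPM elsewhere. Its annotation is a carbohydrate-binding X8 domain protein, and it was not on the callose list. Near Glyma.13G261000, Glyma.13G261700 was highest in sn6b, at 209.8 CPM against 130.0 CPM in sn6a.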
